A study of Homo sapiens with 4 samples.

Results

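The D-type cyclins CCND1, CCND2 and CCND3, the kinases they activate, CDK4 and CDK6, and the inhibitors CDKN1B, CDKN1C, CDKN2A, CDKN2B and CDKN2C were followed across all libraries of a knockdown series. These 10 genes were chosen by name, out of 27629 genes listed in the tables, and 8 of the 10 had values. CDKN2A and CDKN2B were not analysed here. The cells were UM-UC-3, a human line established from bladder cancer, given 75 nM siRNA and harvested 48 h later for sequencing of total RNA. The groups were a negative control siRNA, 2 siRNAs against hnRNPK (si-hnRNPK), 2 siRNAs against PTBP1 (si-PTBP1) and 2 siRNAs labelled si-lncRNA-LBCS, called here the LBCS-labelled library because its target was not clearly lowered. Each group was 1 library, so differences could not be set against variation among cultures, and every comparison uses the same control library.

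Cyclin D binds CDK4 or CDK6 in the G1 phase, and the complex phosphorylates the retinoblastoma protein RB, which releases E2F transcription factors that switch on genes for DNA replication. INK4 proteins such as p18 (CDKN2C) bind the kinases and block pairing with cyclin D. CIP/KIP proteins such as p27 (CDKN1B) and p57 (CDKN1C) bind cyclin and kinase together and inhibit CDK2 complexes. This pathway is commonly altered in bladder cancer, and hnRNPK and PTBP1 are RNA-binding proteins that also act in transcription or splicing.

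Levels are given as CPM, the reads of a gene scaled to a common library size. The libraries held 54301152 to 70232674 reads on listed genes. HNRNPK was at 24.0% of the control level in the si-hnRNPK library and PTBP1 at 32.0% in the si-PTBP1 library. AL022068.1, the gene that holds both siRNA sequences used for the LBCS-labelled library, was at 1.79 CPM (110 reads) with control siRNA and at 1.47 CPM (103 reads) there, so its level does not check that label. Of the urothelial markers UPK1A, UPK1B, UPK2, UPK3A, KRT20, GATA3, PPARG and KRT5, PPARG alone reached 1 CPM in any library. Among epithelial markers, the keratins KRT8 and KRT18 lay between 63.0 and 121 CPM. The others were low, with KRT7 between 1.42 and 3.03 CPM and KRT19 between 0.0712 and 0.232 CPM. EPCAM had a value in si-PTBP1 only, of 0.0178 CPM. UPK3A and CDH1 were not analysed here. Of 7 blood and endothelial markers, 3 had values and their summed level lay between 0.0854 and 0.221 CPM. The median change of all genes against control was -0.11 on the log2(CPM + 1) scale in si-hnRNPK, -0.01 in the LBCS-labelled library and 0.12 in si-PTBP1.

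The siRNA sequences are shown because stretches of the members' own mRNAs match their seeds. The seed is bases 2 to 8 of the guide strand, through which an siRNA can also lower mRNAs other than its target. The listed strand is the sense strand, since it occurs in transcripts of HNRNPK or PTBP1, and capitals mark its bases 12 to 18, which pair with the seed.
si-hnRNPK siRNA 1: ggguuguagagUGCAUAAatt
si-hnRNPK siRNA 2: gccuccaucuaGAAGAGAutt
si-lncRNA-LBCS siRNA 1: gcugcucauuuGUCUGAUctt
si-lncRNA-LBCS siRNA 2: ggugguagucaACACAAAutt
si-PTBP1 siRNA 1: gccucaacgucAAGUACAatt
si-PTBP1 siRNA 2: cccucauugacCUGCACAatt
control siRNA: uucuccgaacgUGUCACGutt

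Matches were sought in the longest annotated 3' UTR of each of the 8 members in GENCODE release 29. The seed match of si-hnRNPK siRNA 1 occurred in CCND1, CDK6 and CDKN2C, against 9.58% of 19146 genes. These 30-base stretches on GRCh38 hold it in capitals, and all lie in the 3' UTR of the named gene.
CCND1, chr11:69651512-69651541, plus strand: aaaatagtattTGCATAAccctgagcggtg
CCND1, chr11:69653752-69653781, plus strand: gctatggaagtTGCATAAttattattatta
CDK6, chr7:92608663-92608692, minus strand: ggtgtcttctgTGCATAAataagtacaaca
CDK6, chr7:92607685-92607714, minus strand: tgttctacattTGCATAAattatttctatt
CDK6, chr7:92606036-92606065, minus strand: ttccttaaaggTGCATAAttattcttattc
CDKN2C, chr1:50974384-50974413, plus strand: ttttctgaaacTGCATAAgtgaaaatctta

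The match of si-lncRNA-LBCS siRNA 2 occurred 3 times in CCND1 and once in CDK6, against 16.4% of genes with at least 1. The CCND1 stretches are shown because CCND1 was the member with the lowest level relative to control in that library.
CCND1, chr11:69651634-69651663, plus strand: aataggcattaACACAAAggaggcgtctcg
CCND1, chr11:69652789-69652818, plus strand: cacacacacacACACAAAccttctgccttt
CCND1, chr11:69652890-69652919, plus strand: agaaaaaaaccACACAAAgacattgattca

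The other matches were 1 in CDK6 and 1 in CDKN1B for si-hnRNPK siRNA 2, and 2 in CDK6 and 1 in CCND2 for si-PTBP1 siRNA 1. The control siRNA, si-lncRNA-LBCS siRNA 1 and si-PTBP1 siRNA 2 had none in the 8 members. CCND3, CDK4 and CDKN1C held no match to any of the 7 siRNAs. CDK6 has a 3' UTR of 10219 bases, the longest of the 8, and CDKN2C one of 363 bases, the shortest.

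**Figure D1:**
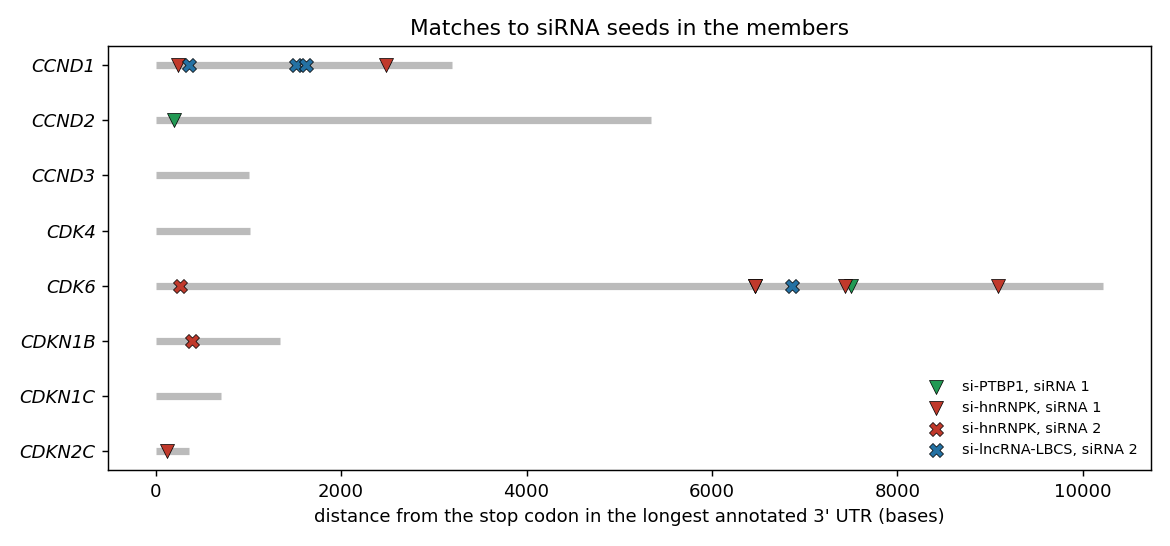
Position of each siRNA seed match (markers, coloured by library and shaped by siRNA) along the longest annotated 3' UTR (grey bars) of the 8 members, in bases from the stop codon. CCND1, CDK6 and CDKN2C carry 2, 3 and 1 matches to si-hnRNPK siRNA 1, and CCND1 carries 3 to si-lncRNA-LBCS siRNA 2.

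Changes are differences in log2(CPM + 1), on which low genes appear to change less than they did, and a gene counts as risen or fallen at a difference of 1 or more, which is 2-fold. Ratios of CPM carry a 95% interval (exact, Clopper-Pearson) that covers counting error only. In si-hnRNPK, CCND1 and CDKN2C fell and none of the 8 members rose, while 3.93% of the 13672 genes tested fell and 3.55% rose. None of the 8 rose or fell in the LBCS-labelled library, where 0.378% of 13492 genes rose and 1.01% fell. In si-PTBP1, CDKN1C rose and no member fell, beside 2.92% of 13855 genes that rose and 0.613% that fell. With 8 members these counts are small, and the median change of the members was -0.33 in si-hnRNPK, -0.02 in the LBCS-labelled library and -0.20 in si-PTBP1.

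CCND1 (ENSG00000110092, chromosome 11 of GRCh38, 69641087 to 69654474, plus strand) encodes cyclin D1. It was at 1187 CPM in the control library, 991 CPM in si-PTBP1, 678 CPM in the LBCS-labelled library and 295 CPM in si-hnRNPK. All 3 knockdown libraries were below control, and each step in this order was larger than counting error. Its change in si-hnRNPK was -2.00 on the log2(CPM + 1) scale, and 0.0585% of the genes tested had a lower value. Relative to the median change of all genes it was -1.90. In bulk RNA, fewer cells that express a gene and less of its RNA per cell cannot be told apart. In the LBCS-labelled library CCND1 was at 57.2% of control, with a ratio of 0.572 (interval 0.565 to 0.578) and a change of -0.81 that did not reach 1. In si-PTBP1 it was at 83.5% of control, a ratio of 0.835 (0.826 to 0.844).

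CCND2 (ENSG00000118971, chromosome 12, 4273772 to 4305350, plus strand), which encodes cyclin D2, had another order of libraries than CCND1. It was at 199.7 CPM in control, 275.7 CPM in si-hnRNPK, 209 CPM in the LBCS-labelled library and 146 CPM in si-PTBP1. The highest level of CCND2 was thus in the library with the lowest CCND1. The ratio to control was 1.38 (1.35 to 1.41) in si-hnRNPK and 0.733 (0.712 to 0.753) in si-PTBP1, and neither change reached 2-fold. In the LBCS-labelled library the ratio was 1.04 (1.02 to 1.07). AC008012.1, annotated on the same strand, covers 13.8% of the merged exons of CCND2 and had no values here. Its part in the CCND2 value was not tested.

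CCND3 (ENSG00000112576, chromosome 6, 41934933 to 42050357, minus strand), which encodes cyclin D3, was at 30.5 CPM in control and lower in every knockdown library. It was at 19.8 CPM in si-hnRNPK, 24.1 CPM in the LBCS-labelled library and 24.7 CPM in si-PTBP1. The last 2 did not differ beyond counting error, with a ratio of 1.03 (0.955 to 1.10). The lowest level, in si-hnRNPK, was 64.8% of control, or -0.60 on the log2(CPM + 1) scale.

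**Figure D2:**
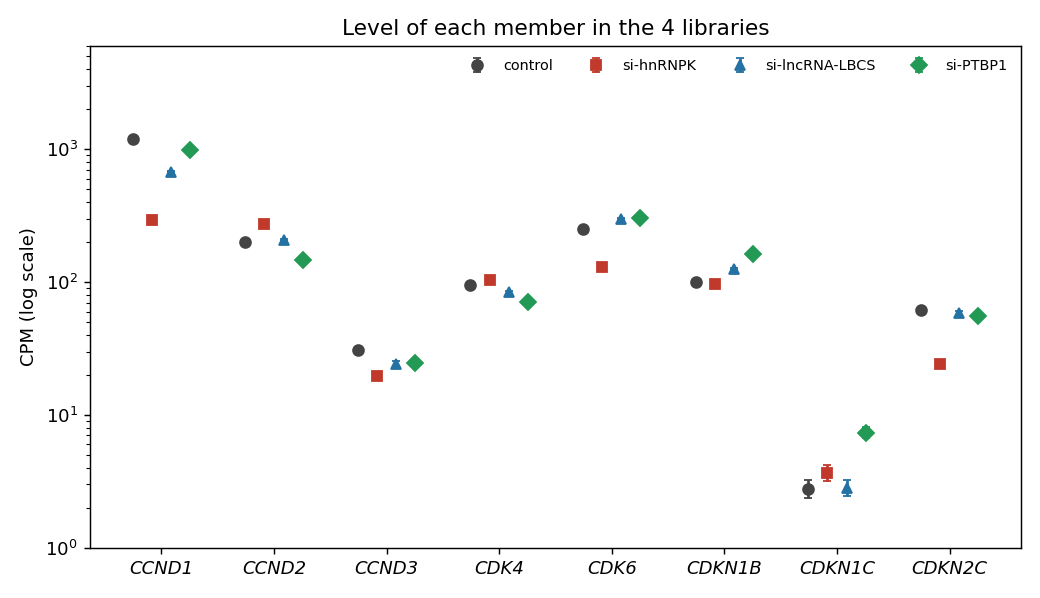
Level of the 8 members in CPM (log axis) in each of the 4 libraries, 1 point per library, with bars for the 95% Poisson counting interval. CCND1 spans 1187 CPM in control to 295 CPM in si-hnRNPK, while CDKN1C lies between 2.79 and 7.35 CPM.

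To compare genes with each other, CPM was divided by the merged exon length of the gene in kb. On this scale CCND1 was at 246 CPM per kb in the control library, rank 127 of 12820 genes at 1 CPM or more. CCND2 was at 27.9 and CCND3 at 5.26 CPM per kb. CCND1 thus made up 88.1% (87.9 to 88.3) of the D-type cyclin level per kb in control, 80.8% (80.6 to 81.1) in the LBCS-labelled library and 89.3% (89.0 to 89.5) in si-PTBP1. In si-hnRNPK its share was 59.3% (58.8 to 59.8) and that of CCND2 was 37.4% (36.9 to 37.9), compared with 10.0% for CCND2 in control. Put as a ratio, control cells held 8.81 (8.64 to 8.98) times as much CCND1 as CCND2 per kb, and si-hnRNPK cells 1.59 (1.55 to 1.62) times. The CCND3 level depended on the length used. With the longest transcript as the length it was at 12.8 CPM per kb in control, and the ratio of CCND1 to CCND3 there was 21.6 rather than 46.7. The summed D-type cyclin level was 279 CPM per kb in control and 103 in si-hnRNPK, or 37.0% of control, against 62.3% in the LBCS-labelled library and 82.4% in si-PTBP1.

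CDK4 and CDK6, the catalytic partners, had different orders. CDK6 (ENSG00000105810, chromosome 7, 92604921 to 92836594, minus strand) was at 252 CPM in control, 129 CPM in si-hnRNPK, 298 CPM in the LBCS-labelled library and 302 CPM in si-PTBP1. Si-hnRNPK alone lay below control, and the last 2 did not differ beyond counting error (ratio 1.01, 0.994 to 1.04). The ratio of si-hnRNPK to control was 0.511 (0.497 to 0.526), a change of -0.96 that lay just short of the threshold. Against the geometric mean of the 3 other libraries the change was -1.13, past it. CDK6 thus stood just outside the threshold and CDKN2C, at -1.30, was the fallen member nearest to it.

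CDK4 (ENSG00000135446, chromosome 12, 57747727 to 57756013, minus strand) was at 94.6 CPM in control, 103 CPM in si-hnRNPK, 83.5 CPM in the LBCS-labelled library and 70.9 CPM in si-PTBP1. No library was more than 2-fold from control, with ratios from 0.75 in si-PTBP1 (0.72 to 0.781) to 1.09 in si-hnRNPK (1.05 to 1.13). The exons of TSPAN31, on the opposite strand, cover 43.2% of the merged exons of CDK4, and whether the counting used strand is not given in the sources used here. TSPAN31 was at 14.0 CPM in control and 27.5 CPM in si-hnRNPK, and its part in the CDK4 value was not tested.

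Per kb, CDK4 made up 59.2% (58.5 to 59.9) of the sum of both kinases in control and 75.6% (74.9 to 76.2) in si-hnRNPK. It made up 52.1% (51.3 to 52.8) in the LBCS-labelled library and 47.6% (46.7 to 48.5) in si-PTBP1, where CDK6 exceeded CDK4. With the longest transcript as the length, the CDK4 share was 67.7% in control and 56.8% in si-PTBP1, so which kinase was higher in si-PTBP1 turned with the length used. The sum of both kinases moved less than its makeup, and lay between 85.5% and 100.5% of control in the 3 knockdown libraries.

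CDKN2C (ENSG00000123080, chromosome 1, 50960745 to 50974633, plus strand), the INK4 inhibitor p18, was at 61.3 CPM in control, 58.4 CPM in the LBCS-labelled library, 55.9 CPM in si-PTBP1 and 24.3 CPM in si-hnRNPK. Si-hnRNPK stood apart from the other libraries, of which the LBCS-labelled library and si-PTBP1 did not differ beyond counting error. CDKN2C fell there to 39.7% of control, with a ratio of 0.397 (0.372 to 0.423) and a change of -1.30, or -1.19 relative to the median of all genes. In the LBCS-labelled library and in si-PTBP1 the ratios were 0.954 (0.912 to 0.997) and 0.911 (0.869 to 0.956).

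CDKN1B (ENSG00000111276, chromosome 12, 12715058 to 12722371, plus strand), which encodes p27, was at 99.4 CPM in control and 95.9 CPM in si-hnRNPK. That ratio of 0.965 (0.93 to 1.00) lay within counting error. It was higher in the LBCS-labelled library, at 125 CPM, and in si-PTBP1, at 163 CPM. The ratio to control was 1.26 (1.22 to 1.30) and 1.64 (1.59 to 1.70), and neither reached 2-fold.

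CDKN1C (ENSG00000129757, chromosome 11, 2883213 to 2885773, minus strand), the imprinted gene for p57, was the lowest of the 8 members. It had 171 reads in control, 199 in si-hnRNPK, 199 in the LBCS-labelled library and 412 in si-PTBP1, or 2.79, 3.66, 2.83 and 7.35 CPM. It rose in si-PTBP1, by 1.14 on the log2(CPM + 1) scale, and the ratio without a pseudocount was 2.64 (2.20 to 3.17). In si-hnRNPK the ratio was 1.32 (1.07 to 1.62), and in the LBCS-labelled library 1.02 (0.825 to 1.25), within counting error. Relative to the median change of all genes in si-PTBP1, the difference was 1.02.

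**Figure D3:**
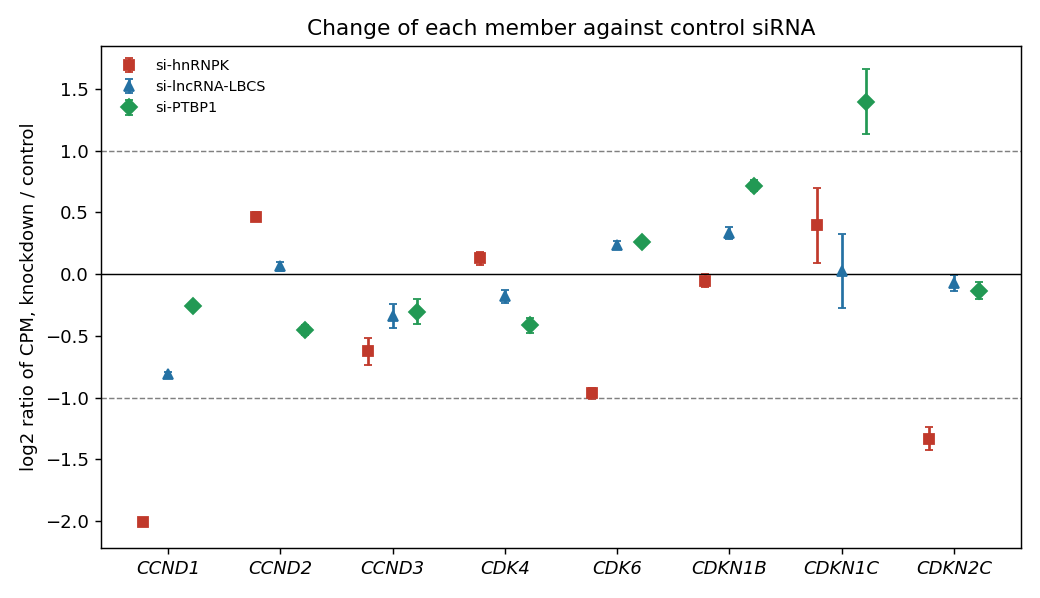
Log2 ratio of CPM of each member in the 3 knockdown libraries to control, without a pseudocount, with 95% exact counting intervals and dashed lines at 2-fold. CCND1 and CDKN2C in si-hnRNPK lie below the lower line, CDK6 at 0.511 of control lies close to it, and CDKN1C in si-PTBP1 lies above the upper line.

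Per kb, the 3 inhibitors with values summed to 55.0 CPM per kb in control, 42.9 in si-hnRNPK, 63.3 in the LBCS-labelled library and 77.9 in si-PTBP1. CDKN1B was the largest part in each library, from 64.3% (63.4 to 65.3) in control to 79.5% (78.5 to 80.4) in si-hnRNPK. The sum of the D-type cyclins was 5.07 times that of these inhibitors in control, 2.40 times in si-hnRNPK, 2.75 times in the LBCS-labelled library and 2.95 times in si-PTBP1. All 3 knockdown libraries thus had fewer D-type cyclin transcripts per inhibitor transcript than control, through lower cyclins in si-hnRNPK and both lower cyclins and higher inhibitors in the other libraries. These are sums of mRNA per length, without CDKN2A and CDKN2B, and say nothing of protein.

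**Figure D4:**
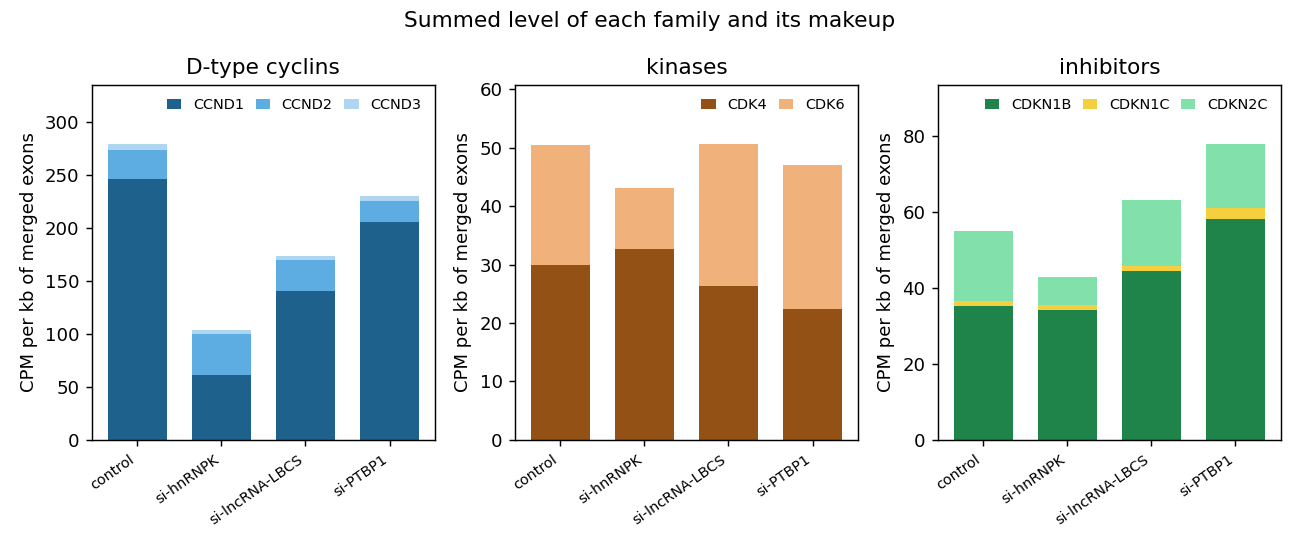
Summed level of the D-type cyclins, the kinases and the inhibitors in CPM per kb of merged exons (stacked bars, 1 bar per library), coloured by gene. The D-type cyclin sum is 279 CPM per kb in control and 103 in si-hnRNPK, where CCND2 makes up 37.4%, and the inhibitor sum is highest in si-PTBP1 at 77.9.

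The members that stood lowest against control in si-hnRNPK were CCND1, CDKN2C and CDK6, and these were the 3 members holding a match to guide bases 2 to 8 of si-hnRNPK siRNA 1. With guide bases 2 to 7 CCND2, which was above control, held a match as well. Across all genes with an annotated 3' UTR, the median change in si-hnRNPK was -0.08 for 10409 genes without this match, -0.24 for 1099 genes with 1 and -0.31 for 195 genes with at least 2. The share that fell was 3.67%, 5.10% and 7.69% in the same order, and the median 3' UTR length was 1244, 3076 and 5517 bases. CCND1, with 2 matches, CDKN2C, with 1, and CDK6, with 3, changed by -2.00, -1.30 and -0.96, so the order of these members did not follow their number of matches. For si-hnRNPK siRNA 2 the medians of genes with 0, 1 and at least 2 matches were -0.09, -0.13 and -0.20. For si-lncRNA-LBCS siRNA 1, which matched no member, they were -0.003, -0.08 and -0.18 in its library. In si-PTBP1 they were 0.13, 0.06 and 0.09 for siRNA 1, and 0.13, 0.07 and 0.10 for siRNA 2. Median 3' UTR length rose with the number of matches for each of these siRNAs. CCND1 also stood lowest of the members in the LBCS-labelled library, in which 500 genes with at least 2 matches to siRNA 2 had a median of -0.06 and 9460 without one had -0.00. CDK6, with 1 match to the same siRNA, was above control there. CDKN1B, with 1 match to si-hnRNPK siRNA 2, was within counting error of control in si-hnRNPK. CCND2 and CDK6 hold matches to si-PTBP1 siRNA 1, and their levels in si-PTBP1 were 0.733 and 1.20 times control. The part of seed matches in the level of any member was not tested. Each knockdown library is labelled with both siRNAs of its target together, so that part cannot be told apart from loss of the target.

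The genes that act with the members were described through lists of 97 genes in all. In si-hnRNPK 6 of 95 tested genes of these lists rose and 16 fell, with a median of -0.34. In the LBCS-labelled library 0 rose and 1 fell, and in si-PTBP1 3 rose and 0 fell. These counts stand beside the shares of all genes given above.

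Transcription factors that act on CCND1 moved in both directions in si-hnRNPK, with 5 of 18 risen and 3 fallen and a median of 0.31. FOS, an immediate early AP-1 subunit, rose from 2.56 to 19.7 CPM, a change of 2.54, and JUNB from 36.7 to 119.5 CPM, a change of 1.68. STAT3, which carries cytokine signals, rose from 83.4 to 192 CPM. FOSL1, the AP-1 subunit Fra-1, fell from 64.2 to 18.7 CPM, LEF1, a partner of beta-catenin, from 9.40 to 2.82 CPM, and ETV4, an ETS factor, from 21.4 to 9.81 CPM. FOSL1 was also the gene of these lists that fell in the LBCS-labelled library, to 21.3 CPM, a change of -1.55. In si-PTBP1 FOSL1 was at 34.6 CPM, so the order of the 4 libraries was the same as for CCND1. By CPM alone ETV4, ETV5 and LEF1 of the same list had this order as well, but their steps were not checked against counting error. Some were small, with ETV5 at 53.1 CPM in si-PTBP1 and 51.1 CPM in the LBCS-labelled library, and LEF1 at 6.92 and 6.08 CPM. The share of all genes with this order was not determined, and a link to the CCND1 level was not tested. FOS, EGR1 and JUND rose in si-PTBP1, by 1.62, 1.54 and 1.18, while CCND1 was at 83.5% of control. EGR1 was low, with 17 reads (0.277 CPM) in control and 152 reads (2.71 CPM) in si-PTBP1, and its ratio of CPM had a wide interval of 5.91 to 17.2.

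Downstream of the kinases, 8 of 24 G1/S genes regulated by E2F fell in si-hnRNPK and none rose, with a median of -0.84, against a median of -0.11 for all genes. TYMS, MCM4 and CDC45, which act in nucleotide supply and DNA replication, fell the most, by 1.84, 1.67 and 1.54 on the log2(CPM + 1) scale. The same list had a median of -0.11 in the LBCS-labelled library, where CCND1 was at 57.2% of control, and -0.27 in si-PTBP1, and no gene of it reached 2-fold in either. Among 10 E2F factors and partners, E2F8, E2F2 and E2F7 fell in si-hnRNPK, by 1.40, 1.22 and 1.06. RB1, the substrate itself, was at 140.0 CPM in control and 109 CPM in si-hnRNPK, and no gene of the RB family reached 2-fold in any library.

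Among regulators of the proteins, none of 8 tested genes of D-type cyclin turnover and none of 8 of p27 turnover reached 2-fold on the log2(CPM + 1) scale in any knockdown library. USP2, a deubiquitinase of cyclin D1, was at 1.48 CPM in control and 0.413 CPM in the LBCS-labelled library, a ratio without the pseudocount of 0.278 (0.177 to 0.427). SKP2, the F-box protein that marks p27 for breakdown, was at 84.8 CPM in control and 54.3 CPM in si-hnRNPK. The chaperones HSP90AA1, HSP90AB1 and CDC37, which fold CDK4 and CDK6, and the CDK-activating kinase genes CDK7, CCNH and MNAT1 did not reach 2-fold either. The chaperones had a median change of -0.42 in si-hnRNPK, -0.76 in the LBCS-labelled library and -0.49 in si-PTBP1, and HSP90AA1 was at 52.7% of control in the LBCS-labelled library. Of the other inhibitors, CDKN1A, which encodes p21, was at 116 CPM in control, 103 CPM in si-hnRNPK, 80.8 CPM in the LBCS-labelled library and 169 CPM in si-PTBP1. CDKN2D, of the same list, was at 3.54 CPM in control. Its ratio of CPM was 0.531 (0.416 to 0.675) in si-hnRNPK, 1.17 (0.98 to 1.40) in the LBCS-labelled library and 1.58 (1.32 to 1.89) in si-PTBP1, all short of 2-fold. CDKN3, a phosphatase that acts on CDK2, fell in si-hnRNPK from 89.6 to 32.0 CPM, a change of -1.46. Of 12 genes that silence the INK4 locus, EZH2 fell in si-hnRNPK, from 97.3 to 43.1 CPM, and no other reached 2-fold in any library. Of 3 tested FOXO genes, whose factors act on CDKN1B, FOXO4 rose in si-hnRNPK, from 1.09 to 3.30 CPM, where CDKN1B was within counting error of control. In si-PTBP1, where CDKN1B was highest, FOXO1 and FOXO4 were at 2.15 (1.83 to 2.55) and 2.34 (1.74 to 3.17) times control by the ratio of CPM, and at 0.93 and 0.76 on the log2(CPM + 1) scale, short of the threshold. FOXO3, the highest of the 3 in control at 57.3 CPM, went the other way in si-PTBP1, to 0.796 (0.756 to 0.838) times control. The part of FOXO genes in the CDKN1B level was not tested.

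**Figure D5:**
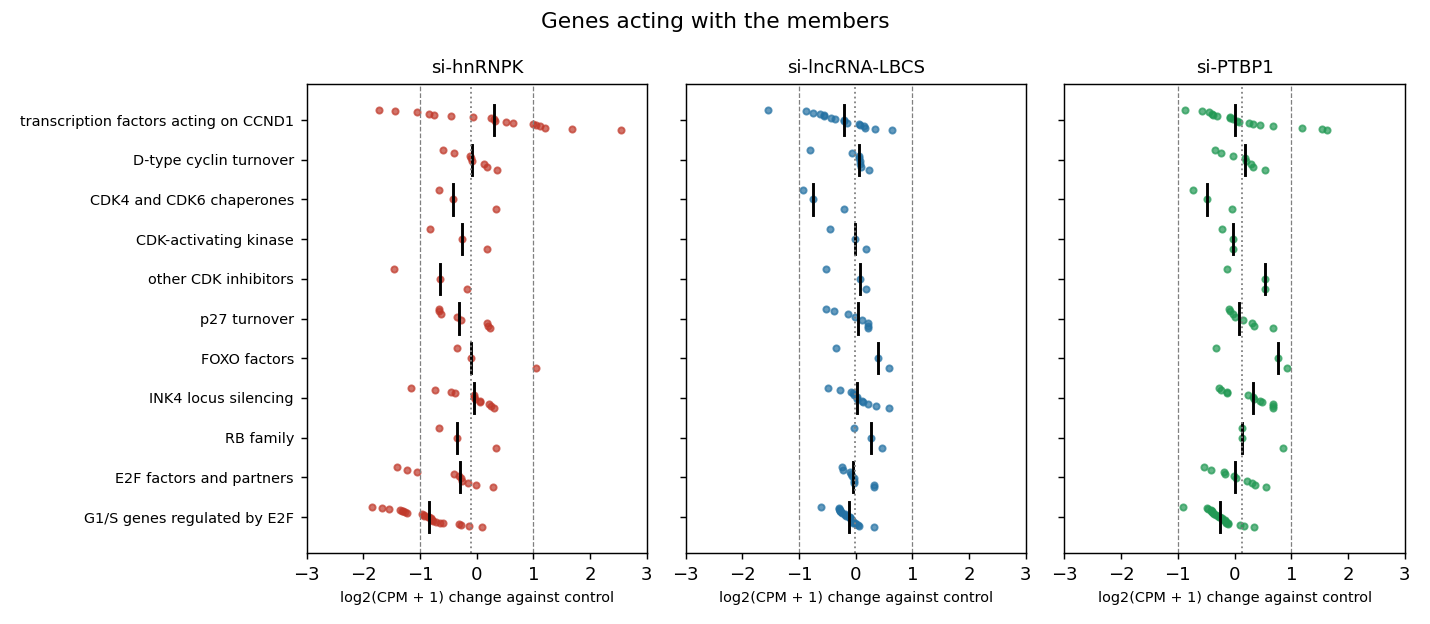
Change in log2(CPM + 1) against control of each gene (points) of 11 lists of genes acting with the members, in the 3 knockdown libraries, with list medians (black bars), the median of all genes (dotted line) and 2-fold limits (dashed lines). The G1/S list has a median of -0.84 in si-hnRNPK, -0.11 in the LBCS-labelled library and -0.27 in si-PTBP1.

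Promoter windows from RefSeq on GRCh38.p14, 300 bases long and spanning a gene's start, were at hand for CCND3, CDK4, CDK6, CDKN1B and CDKN2C, 10 windows in all. None was at hand for CCND1, CCND2 or CDKN1C, so the motif counts do not cover these genes. CCCTCCC, the core of the CT element that hnRNPK binds at the MYC promoter, occurred on either strand in 3 of the 10 windows, compared with 26.6% of all 35116 windows. They belonged to CCND3, CDK4 and CDK6. GGGCGG, the GC box, occurred in 7 of the 10 windows and in 45.0% of all. TTTCCCGC and TTTGGCGC, forms of the E2F motif, TGACTCA (AP-1), TGACGTCA and TAACGTCA (CRE) occurred in none of the 10, and GTAAACA (FOXO) in 1 window of CCND3. A CCND3 window and a CDK6 window hold 3 CT cores each, and the CDK4 window holds 1. Of these the CDK6 window is shown, with its cores in capitals. A core on the strand opposite to the one printed reads GGGAGGG. A CDKN2C window is shown because it holds 6 GC boxes, some overlapping.
CDK6, chr7:92833910-92834209, minus strand: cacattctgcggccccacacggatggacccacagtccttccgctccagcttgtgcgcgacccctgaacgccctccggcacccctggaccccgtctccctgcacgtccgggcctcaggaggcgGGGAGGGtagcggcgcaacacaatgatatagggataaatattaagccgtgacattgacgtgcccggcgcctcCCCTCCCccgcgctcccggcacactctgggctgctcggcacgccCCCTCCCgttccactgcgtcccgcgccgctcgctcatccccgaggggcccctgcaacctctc
CDKN2C, chr1:50968456-50968755, plus strand: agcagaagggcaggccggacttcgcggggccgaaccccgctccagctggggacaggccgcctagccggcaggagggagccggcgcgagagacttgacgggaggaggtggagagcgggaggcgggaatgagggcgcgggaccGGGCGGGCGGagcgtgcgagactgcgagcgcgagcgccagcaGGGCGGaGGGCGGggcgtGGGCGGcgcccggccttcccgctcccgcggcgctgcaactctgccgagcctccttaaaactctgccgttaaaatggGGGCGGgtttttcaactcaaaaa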

How the data were processed

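The authors deposited CPM for 1 library per condition, as 1 table per library with Ensembl identifiers. The build named in the submitters' processing notes is hg19. The aligner, counting method and strand setting are not given in the sources used here. Dividing each deposited value by that of 1 read gave a whole number, within 0.01, for 100% of genes with reads, so reads were recovered, and placeholders of genes without reads were set to 0. Symbols came from the identifiers, and positions, exon lengths and 3' UTRs from GENCODE release 29 on GRCh38, matched by identifier. With 1 library per condition no p-value across genes was computed. An exact binomial test of the recovered reads (two-sided, Benjamini-Hochberg q of at most 0.05) compares 2 libraries, not conditions. It called 10872 genes in si-hnRNPK, 9479 in the LBCS-labelled library and 10182 in si-PTBP1. Genes at 1 CPM or more in control or the knockdown library were tested, with a pseudocount of 1 CPM.

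The members and gene lists were chosen with earlier results of these data known. Genes named beside the members are list genes past 2-fold, up to 3 per list and comparison by size, and the targeted genes. TSPAN31, LTO1 and AC008012.1 are named because their exons cover 10.3% or more of those of a member. Named too are the 3 genes closest in pattern to each fallen member, among genes at 10 CPM or more in their highest library. Singled out after their values were seen were STAT3, LEF1, ETV4, ETV5, SKP2, USP2, HSP90AA1, FOXO1, FOXO3, RB1, CDKN1A, CDKN2D, CTTN, MYEOV, CYP27B1, PHLDA2, KCNQ1, KLHL9 and CDKN2B-AS1. On data simulated for si-hnRNPK against control, 100% of 200 genes changed 4-fold among 13672 were recovered. The simulation held counting error only, and the changes were planted in genes at 10 CPM or more. It therefore checks the calculation, and cannot test calls near 2-fold, calls in lower genes or variation among cultures. Computation used scipy 1.17.1, numpy 2.4.6 and pandas 2.3.3 under Python 3.11.15, and figures matplotlib 3.10.9. Alternatives were another pseudocount, filter, threshold, scaling, reference, gene length and seed length.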

Additional observations from a re-analysis of the deposited data

How the results depend on the processing

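Which members rose or fell did not depend on a pseudocount of 0.1, on leaving out the filter, on a filter of 5 CPM, on median-of-ratios scaling or on adding the binomial test. With a threshold of 1.5-fold, 4 members changed in si-hnRNPK (CCND3 and CDK6 added), 1 in the LBCS-labelled library (CCND1) and 2 in si-PTBP1 (CDKN1B added). The geometric mean of the 3 other libraries as reference gave 3 in si-hnRNPK, with CDK6. Against that reference CCND1 in si-PTBP1 was at 0.68, above it rather than below. The sign of a member's change differed in 7 of 72 alternative values, none of them for a member in a comparison where it rose or fell. Median-of-ratios scaling turned CDKN1B in si-hnRNPK from -0.05 to 0.06, within counting error. Of the list genes, 22 changed in si-hnRNPK, 1 in the LBCS-labelled library and 3 in si-PTBP1. A 1.5-fold threshold made these 47, 11 and 14, and a pseudocount of 0.1 made the last pair 2 and 5. With the geometric mean as reference they were 15 in si-hnRNPK, 2 in the LBCS-labelled library and 2 in si-PTBP1. With the longest transcript as length the CCND1 share was 86.3% in control, 57.4% in si-hnRNPK, 78.8% in the LBCS-labelled library and 87.5% in si-PTBP1. With seeds of guide bases 2 to 7, members with a match went from 4 to 5 in si-hnRNPK, from 2 to 5 in the LBCS-labelled library and from 2 to 4 in si-PTBP1. No paired analysis was possible because each group has 1 library. Depth limits CDKN1C most, at 171 reads in control.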

Other observations

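The genes with the pattern most like CCND1 over the 4 libraries, by Euclidean distance between centred log2(CPM + 1) values among 9451 genes at 10 CPM or more in their highest library, were KIF18B, CIT and FOXM1, at distances of 0.14, 0.20 and 0.22. KIF18B, a mitotic kinesin, was at 32.6 CPM in control, 29.9 in si-PTBP1, 19.0 in the LBCS-labelled library and 7.13 in si-hnRNPK. FOXM1, a transcription factor of the G2/M program, was at 102, 88.2, 68.6 and 29.5 CPM in the same order. For CDKN2C the closest were FANCD2, CCDC77 and BLM, at 0.05, 0.06 and 0.08. FANCD2 and BLM act in the repair of DNA at stalled replication forks. FANCD2 was at 85.5 CPM in control, 83.5 in the LBCS-labelled library, 79.8 in si-PTBP1 and 33.4 in si-hnRNPK. These distances describe 4 libraries and carry no test.

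Of 6 tested genes beside CCND1 on chromosome 11, none reached 2-fold on the log2(CPM + 1) scale in any knockdown library. By the ratio of CPM, without the pseudocount, MYEOV was at 0.366 (0.284 to 0.470) of control in the LBCS-labelled library and 0.419 (0.321 to 0.542) in si-PTBP1, from 3.54 CPM in control. CTTN, which encodes cortactin, was at 408 CPM in control and 576 CPM in si-hnRNPK, and LTO1, whose exons cover 10.3% of those of CCND1 on the opposite strand, was at 25.8 and 19.2 CPM. None of 5 tested genes beside CDK4 reached 2-fold on the log2(CPM + 1) scale, while CYP27B1, at 3.81 CPM in control, was at 0.372 (0.284 to 0.483) of control in si-hnRNPK, 0.463 in the LBCS-labelled library and 0.421 in si-PTBP1 by the ratio of CPM. Of 4 tested genes beside CDKN1C none reached 2-fold on either scale, and PHLDA2, also imprinted, was at 7.74 CPM in control and 10.4 CPM in si-PTBP1. KCNQ1, also beside CDKN1C but below 1 CPM in every library and so not tested, had 13 reads in control and 34 in si-PTBP1. Its ratio of CPM there was 2.86 (1.47 to 5.91). Near CDKN2A and CDKN2B, KLHL9 was at 84.4 to 121 CPM in the 4 libraries, the antisense transcript CDKN2B-AS1 at 0.0978 to 0.239 CPM, and MTAP and DMRTA1 were not analysed here.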
